A study of Homo sapiens with 9 samples.

Results

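The 10 genes described here code for histone lysine demethylases with a Jumonji C domain: KDM2A, KDM2B, KDM3A, KDM3B, KDM4A, KDM4B, KDM4C, KDM5A, KDM5B and KDM6B. They were taken by gene name from a table of counts for 27673 genes, a rule that used no measured value. The cells were A498, a human line from clear cell renal cell carcinoma (ccRCC), and every group carried a lentiviral pLKO.1 short hairpin RNA (shRNA) and had been selected with puromycin. Cells with a control hairpin (shControl, genotype WT in the labels) were set beside cells with a hairpin against BMAL1 (shBMAL1) or against ARNT (shARNT), with 3 libraries per group that the labels call biological replicates. Each target is represented by a single hairpin, so a hairpin and the loss of its target cannot be told apart, and the labels do not say whether the replicates came from separate infections. BMAL1, listed in the table under its gene symbol ARNTL, is the clock transcription factor that pairs with CLOCK. ARNT (HIF1β) is the canonical partner that HIF1α and HIF2α, the hypoxia-inducible factors, share. The comparisons ask how these demethylase transcripts differ once either partner is depleted.

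Jumonji C demethylases use iron, molecular oxygen and 2-oxoglutarate to hydroxylate a methyl group on a histone lysine, after which the group leaves as formaldehyde. They are sorted by the lysine they act on: KDM2A and KDM2B on H3K36, KDM3A and KDM3B on H3K9, KDM4A, KDM4B and KDM4C on H3K9 and H3K36 in their trimethylated forms, KDM5A and KDM5B on H3K4, and KDM6B on H3K27. KDM3A, KDM4B and KDM4C are textbook targets of the hypoxia-inducible factors in oxygen-starved cells, and ccRCC usually keeps these factors on through loss of the VHL tumor suppressor.

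Because ARNT heterodimers bind the hypoxia response element, whose core is ACGTG or GCGTG, and BMAL1 heterodimers bind the E-box CACGTG, the promoter windows of the members were searched for these letters on both strands. A window ran from 250 bases before to 50 bases after a transcript start in RefSeq (GRCh38.p14), and the 10 members had 16 windows. The stretches below are from the members known as hypoxia targets and lie on the plus strand, with the motif in capitals. The KDM3A stretch is chr2:86441333-86441361, the KDM4B stretch chr19:4968863-4968889, and the KDM4C stretches chr9:6757898-6757927 and chr9:6757930-6757959.
KDM3A: ccgggaggctgtGCGTGtcttgtgagagc
KDM4B: gtcagcgggCACGTGggtgggcgccgg
KDM4C, upstream: tgtttgtaagccCACGTGactcaccaagtg
KDM4C, downstream: ggccccagcggtCACGTGacggcgcgcgcg
The E-box CACGTG, which contains ACGTG on either strand, was found in 2 of the 16 member windows, those of KDM4B and KDM4C, and in 7.26% of all 35116 windows. ACGTG was found in 3 member windows and in 21.4% of all windows, and GCGTG in 12 member windows and in 36.5% of all windows. The 2 KDM3A windows overlap and hold the same GCGTG, so the member windows are not independent of each other. By gene, 9 of the 10 members had GCGTG, a count that cannot be set beside the share of windows. KDM3B was the only member with none of the 3 motifs in its window. These matches are descriptions of the letters in the windows. No binding was measured in these libraries.

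The library totals ran from 35269851 to 36099075 counts. ARNT had 1603, 1667 and 1738 counts in shControl, 1128, 1147 and 1038 in shBMAL1 and 369, 361 and 395 in shARNT, a log2 fold change of -2.41 in shARNT against shControl and of -0.65 in shBMAL1. ARNTL had 556, 524 and 536 counts in shControl, 185, 191 and 140 in shBMAL1 and 948, 993 and 893 in shARNT, with log2 fold changes of -1.70 in shBMAL1 and 0.55 in shARNT. Each hairpin therefore lowered its own target, while ARNT was also lower in shBMAL1 and ARNTL higher in shARNT. CA9, the carbonic anhydrase known as a marker of hypoxia-inducible factor activity, had 2355 to 2640 counts in the control libraries and fell to between 972 and 1109 with the BMAL1 hairpin and to between 33 and 50 with the ARNT hairpin. The renal epithelial genes PAX8 and KRT18 were present in every library, and the leukocyte genes CD3E and PTPRC and the endothelial genes PECAM1, CDH5 and VWF had at most 12 counts. The leukocyte gene CD14 had 11, 0 and 8 counts in shControl, 10, 10 and 6 in shBMAL1 and 18, 31 and 34 in shARNT. Of the 4 fibroblast genes, COL1A2 and DCN had at most 10 counts, PDGFRB had 6 to 82, and COL1A1 had 7622 to 8006 in shControl against 1161 to 2005 elsewhere, and the part of CD14 and COL1A1 in the results below was not tested. The epithelial marker EPCAM was nearly absent, at 2 to 17 counts. In bulk RNA, fewer cells with a transcript and less of it per cell cannot be told apart.

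All 10 demethylase transcripts passed the filter on low counts. In shARNT against shControl, 5 were higher and 2 lower at an adjusted p under 0.1 (edgeR's quasi-likelihood F-test, Benjamini-Hochberg adjusted over the 15551 genes tested, as for every adjusted p given here). In the same comparison 40.5% of all genes tested were higher and 41.3% lower, 81.8% in all, so 7 members of 10 is close to the background. In shBMAL1 against shControl, 5 members were higher and 2 lower, against 31.9% and 31.5% of all genes, 63.3% in all. The median log2 fold change of the members was 0.14 in shARNT and 0.12 in shBMAL1, where the medians of all genes were -0.01 and -0.00. Without regard to sign, the median was 0.41 for the members and 0.66 for all genes in shARNT, and 0.15 and 0.32 in shBMAL1, so the median member moved less than the median gene in both, although KDM5A in shARNT and KDM3A in shBMAL1 moved more. The values of shControl and shARNT did not overlap for 8 members (79.8% of all genes), and those of shControl and shBMAL1 for 6 (62.2%). Levels are given below as CPM, the counts relative to the library total after scaling by edgeR's trimmed mean of M values. Both comparisons use the same shControl libraries and are therefore not independent of each other.

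**Figure D1:**
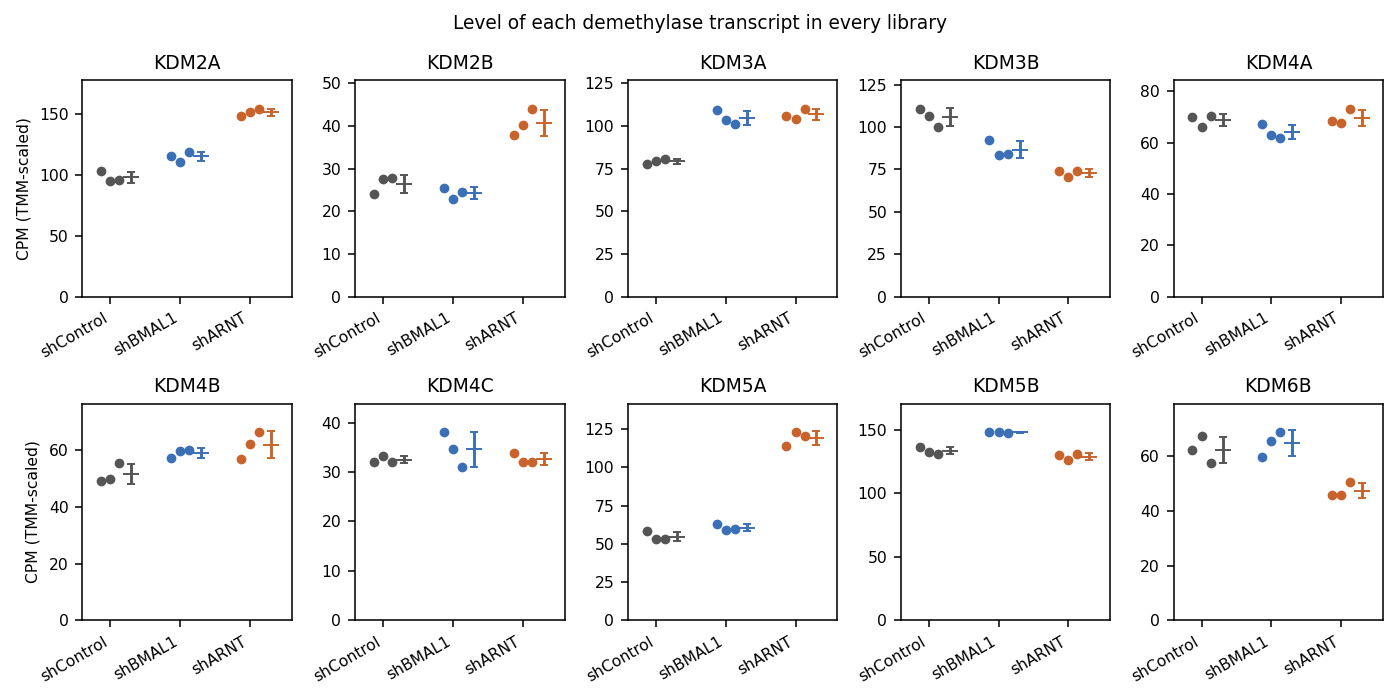
TMM-scaled CPM of each of the 10 demethylase transcripts (vertical axis, from 0) in the 3 libraries of shControl, shBMAL1 and shARNT; points are libraries, and the cross and bar beside them are the mean ± SD (n = 3). KDM5A is highest in shARNT, at 113.9 to 123.1 CPM against 52.94 to 63.0 in the other libraries, whereas KDM4C overlaps in all 3 groups.

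The KDM3 pair removes methyl groups from mono- and dimethylated H3K9, and its members changed in opposite directions under both hairpins. KDM3A, on chromosome 2 (86667770 to 86719839, GRCh37), measured 77.89, 79.22 and 80.59 CPM in shControl, 109.3, 103.5 and 100.9 in shBMAL1 and 105.7, 104.2 and 110.1 in shARNT. The hairpin groups overlapped each other, and both lay above every control library. Against shControl, the log2 fold change of KDM3A was 0.40 ± 0.0451 (SE) in shBMAL1, with an adjusted p of 2.3e-07, and 0.43 ± 0.0448 in shARNT, with an adjusted p of 2.84e-08. KDM3A was higher in the groups in which CA9, also a hypoxia target, was lower, and a link between these changes was not tested. KDM3B, on chromosome 5 (137688374 to 137772717), measured 110.9, 106.4 and 100.3 CPM in shControl, 92.28, 83.51 and 84.06 in shBMAL1 and 73.89, 70.47 and 74.33 in shARNT. The 3 groups did not overlap and descended in that order. Its log2 fold change was -0.29 ± 0.0509 (SE) in shBMAL1, with an adjusted p of 6.17e-05, and -0.54 ± 0.0510 in shARNT, with an adjusted p of 6.23e-09.

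Since both members of a pair are read in the same library, their ratio does not depend on how the libraries are scaled to each other. Per kilobase of transcript, the KDM3A to KDM3B ratio was 1.08 ± 0.0732 in shControl, 1.74 ± 0.0400 in shBMAL1 and 2.11 ± 0.0417 in shARNT (SD, n = 3). It lay between 1.012 and 1.158 in the control libraries. The range was 1.707 to 1.785 with the BMAL1 hairpin and 2.06 to 2.133 with the ARNT hairpin. Per kilobase, near-equal levels in the control cells had thus become an excess of KDM3A in every hairpin library. The near-equality rests on a single canonical transcript length per gene, whereas the relative shift between groups does not depend on the length used. Before division by length, KDM3A had 2593 to 2662 counts in shControl and KDM3B 3313 to 3692.

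**Figure D2:**
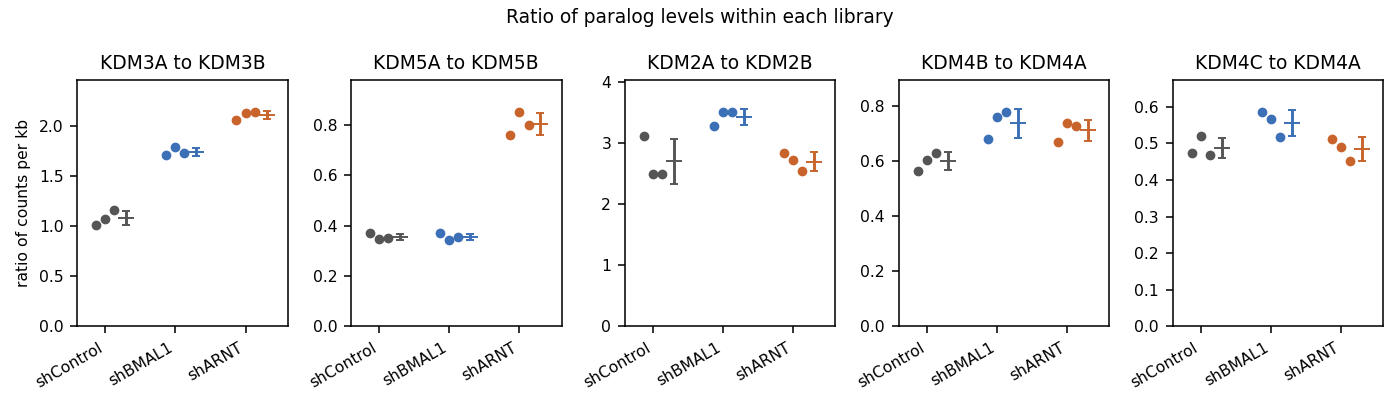
Ratio of the counts per kilobase of related demethylases within each library (vertical axis, no unit, from 0), with points for libraries and a cross and bar for the mean ± SD (n = 3 per group). KDM3A to KDM3B rises from 1.08 in shControl to 1.74 in shBMAL1 and 2.11 in shARNT, and KDM5A to KDM5B is set apart in shARNT alone.

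The KDM4 enzymes act on trimethylated H3K9 and H3K36, and of the 3 only KDM4B was called higher under both hairpins. KDM4B, on chromosome 19 (4969124 to 5153609), measured 49.26, 49.72 and 55.43 CPM in shControl, 57.03, 59.8 and 60.1 in shBMAL1 and 57.01, 62.27 and 66.39 in shARNT. Each hairpin library lay above each control library, although the distance between the highest control and the lowest hairpin library was smaller than the range of the control libraries. KDM4B gained 0.20 ± 0.0608 (SE) on the log2 scale in shBMAL1, with an adjusted p of 0.00927, and 0.27 ± 0.0603 in shARNT, with an adjusted p of 0.000486. KDM4C, on chromosome 9 (6720863 to 7175648), measured 32.08, 33.26 and 31.97 CPM in shControl, 38.11, 34.57 and 31.05 in shBMAL1 and 33.93, 32.03 and 31.95 in shARNT. All 3 groups overlapped, and neither log2 fold change was called, 0.09 for the BMAL1 hairpin (adjusted p = 0.256) and 0.01 for the ARNT hairpin (adjusted p = 0.908). The interval of 2 SE on either side ran from -0.04 to 0.23 for shBMAL1 and from -0.13 to 0.14 for shARNT. Without shBMAL1 replicate 3, the lowest of its group, KDM4C was called higher in shBMAL1, at 0.16 (adjusted p = 0.0399).

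KDM4A, on chromosome 1 (44115820 to 44171189), measured 69.9, 66.16 and 70.51 CPM in shControl, 67.36, 63.16 and 61.98 in shBMAL1 and 68.34, 67.53 and 73.27 in shARNT. Both hairpin groups overlapped with shControl, and the shBMAL1 libraries lay just below the shARNT libraries. The log2 fold change in shBMAL1 was -0.10 (adjusted p = 0.0981), just inside the threshold, and it was no longer called when shControl replicate 1 or 3, shBMAL1 replicate 2 or 3, or shARNT replicate 1 or 2 was left out. In shARNT it was 0.02 (adjusted p = 0.756). With library size alone in place of the trimmed mean, KDM4A and KDM4C were both called higher in shARNT, at 0.26 (adjusted p = 0.000143) and 0.25 (adjusted p = 0.00286). That scaling moved the median of all genes to 0.23 in shARNT against shControl, so relative to the median gene both stayed near 0. Relative to KDM4A in the same library and per kilobase, KDM4B stood at 0.598 in shControl, 0.737 in shBMAL1 and 0.710 in shARNT, with ranges that overlapped between the hairpin groups but not with shControl, where the highest ratio was 0.629. KDM4A-AS1 shares 473 exon bases with KDM4A on the opposite strand. It had 143, 127 and 123 counts in shControl, 83, 101 and 108 in shBMAL1 and 90, 100 and 116 in shARNT. An unnamed protein-coding gene shares 2086 exon bases with KDM4A on the same strand and was not found among the genes counted. The part of these overlaps in the KDM4A values was not tested.

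The KDM5 pair removes methyl groups from H3K4, and KDM5A showed the largest change of any member. KDM5A, on chromosome 12 (389223 to 498486), measured 58.03, 52.94 and 52.95 CPM in shControl, 63.0, 58.78 and 59.98 in shBMAL1 and 113.9, 123.1 and 120.4 in shARNT. The shARNT libraries formed a group of their own far above the rest, and the shBMAL1 libraries lay just above the highest control library. KDM5A gained 1.12 ± 0.0510 (SE) on the log2 scale in shARNT, with an adjusted p of 4.3e-14, and 0.15 ± 0.0521 in shBMAL1, with an adjusted p of 0.0194. KDM5B, on chromosome 1 (202693623 to 202777615), measured 136.6, 132.7 and 131.1 CPM in shControl, 148.3, 148.3 and 147.3 in shBMAL1 and 129.9, 125.8 and 130.8 in shARNT. It gained 0.15 ± 0.0389 (SE) on the log2 scale in shBMAL1, with an adjusted p of 0.00279. In shARNT the value was -0.05 (adjusted p = 0.233), which turned to 0.19 (adjusted p = 0.000271) with library size alone, below the shift of 0.23 that this scaling gave the median gene.

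The KDM5A to KDM5B ratio per kilobase was 0.355 in shControl (0.346 to 0.369), 0.356 in shBMAL1 (0.344 to 0.369) and 0.803 ± 0.0443 in shARNT (SD, n = 3; 0.762 to 0.850). The pair thus kept its proportions in the shBMAL1 libraries, where both transcripts rose by the same log2 fold change of 0.15, and lost them in the shARNT libraries. CCDC77 lies on the opposite strand to KDM5A and shares 48 exon bases with it, at 231 to 319 counts per library. The sources used here do not say whether counting kept the strands apart.

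The KDM2 pair acts on mono- and dimethylated H3K36, and both proteins also bind unmethylated CpG islands through a zinc finger of the CXXC type. KDM2A, on chromosome 11 (66886734 to 67025553), measured 103.6, 95.53 and 95.82 CPM in shControl, 115.9, 111.3 and 119.2 in shBMAL1 and 149.1, 151.7 and 154.9 in shARNT. The groups did not overlap and ascended in that order. KDM2A gained 0.23 ± 0.0448 (SE) on the log2 scale in shBMAL1, with an adjusted p of 0.000171, and 0.63 ± 0.0444 in shARNT, with an adjusted p of 6.11e-11. KDM2B, on chromosome 12 (121866899 to 122018928), measured 23.94, 27.64 and 27.73 CPM in shControl, 25.45, 22.9 and 24.52 in shBMAL1 and 37.92, 40.15 and 44.04 in shARNT. Only the shARNT libraries stood apart, 0.62 ± 0.0712 (SE) above shControl on the log2 scale with an adjusted p of 1.06e-07.

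In shBMAL1, KDM2B had a log2 fold change of -0.12 (adjusted p = 0.168), which became -0.19 (adjusted p = 0.04) without shControl replicate 1, the lowest control library. The KDM2A to KDM2B ratio per kilobase was higher in shBMAL1, at 3.43 ± 0.126, than in shControl, at 2.70 ± 0.363, and was 2.69 ± 0.151 in shARNT (SD, n = 3). Of the pair, only KDM2A was called in shBMAL1, at 0.23 (adjusted p = 0.000171). The ratio of shControl replicate 1 was 3.115, against 2.486 at the lowest, so the control spread was wide. RNF34 shares 439 exon bases with KDM2B on the opposite strand and had 354 to 454 counts per library.

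KDM6B, the H3K27 demethylase also known as JMJD3, lies on chromosome 17 (7737535 to 7758114). It measured 62.18, 67.28 and 57.7 CPM in shControl, 59.64, 65.72 and 68.95 in shBMAL1 and 45.9, 45.79 and 50.57 in shARNT. The control and shBMAL1 libraries were intermingled, and every shARNT library lay below them. The log2 fold change of KDM6B was -0.40 ± 0.0645 (SE) in shARNT, with an adjusted p of 1.3e-05, and 0.05 with the BMAL1 hairpin, with an adjusted p of 0.493. With library size alone the shARNT value was -0.16 (adjusted p = 0.0291).

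**Figure D3:**
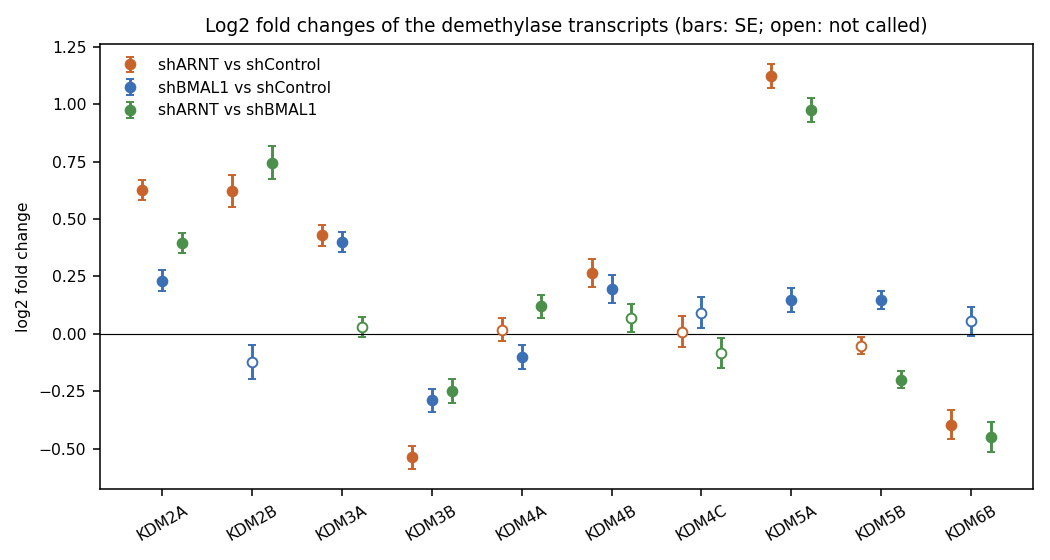
Log2 fold change (vertical axis) of each of the 10 demethylases (horizontal axis) in the 3 comparisons, with bars of 1 SE on either side from the fit over 3 libraries per group; filled points passed an adjusted p under 0.1 and open points did not. KDM5A at 1.12 in shARNT is the farthest from 0, and KDM3B is below 0 in every comparison.

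The hairpin groups were also compared directly, which tests whether a transcript differed between ARNT and BMAL1 depletion. Of the 10 members, 4 were higher and 3 lower in shARNT than in shBMAL1 (40.1% and 41.1% of all genes, 81.2% in all), and the values did not overlap for 7 (79.6%). The higher ones were KDM5A at a log2 fold change of 0.98 (adjusted p = 3.79e-13), KDM2B at 0.74 (adjusted p = 7.75e-09), KDM2A at 0.40 (adjusted p = 7.17e-08) and KDM4A at 0.12 (adjusted p = 0.0389). The lower ones were KDM6B at -0.45 (adjusted p = 2.44e-06), KDM3B at -0.25 (adjusted p = 0.000187) and KDM5B at -0.20 (adjusted p = 9.94e-05). KDM3A was not called, at 0.03 with an interval of 2 SE from -0.06 to 0.12, and neither were KDM4B (0.07, adjusted p = 0.293) and KDM4C (-0.08, adjusted p = 0.26). With library size alone in place of the trimmed mean, KDM3A and KDM4B were called, as given below. Under the trimmed mean, the members whose difference between the hairpins was not called were the 3 named above as hypoxia targets. Of these, KDM4B was called without shARNT replicate 1, at 0.13 (adjusted p = 0.0694), and KDM4C without shBMAL1 replicate 3, at -0.16 (adjusted p = 0.034), whereas KDM4A lost its call without shBMAL1 replicate 2 or 3 or shARNT replicate 3.

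Scaling by library size alone, in place of the trimmed mean, gave 8 members higher and 2 lower in shARNT against shControl, where 50.3% and 32.9% of all genes were called (83.2% in all). In shBMAL1 against shControl it gave 6 higher and 1 lower (35.5% and 28.1% of all genes, 63.6% in all), and between the hairpins likewise 6 and 1 (48% and 34%, 82% in all). When a change beyond 1.5-fold was required, 1 member was called in shARNT (KDM5A, where 44.8% of all genes were called), 0 in shBMAL1 (13.6%) and 2 between the hairpins (KDM2B and KDM5A, 43.9%). In the direct comparison, library size alone moved the median of all genes to 0.18, KDM3A (0.22, adjusted p = 0.000163) and KDM4B (0.26, adjusted p = 0.000439) were called higher in shARNT than in shBMAL1, and the calls of KDM3B (-0.06, adjusted p = 0.315) and KDM5B (-0.01, adjusted p = 0.835) were lost. The calls of KDM2A, KDM2B, KDM5A and KDM6B in this comparison held under library size alone, and the KDM3A to KDM3B ratio, which needs no scaling, did not overlap between shBMAL1 and shARNT.

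**Figure D4:**
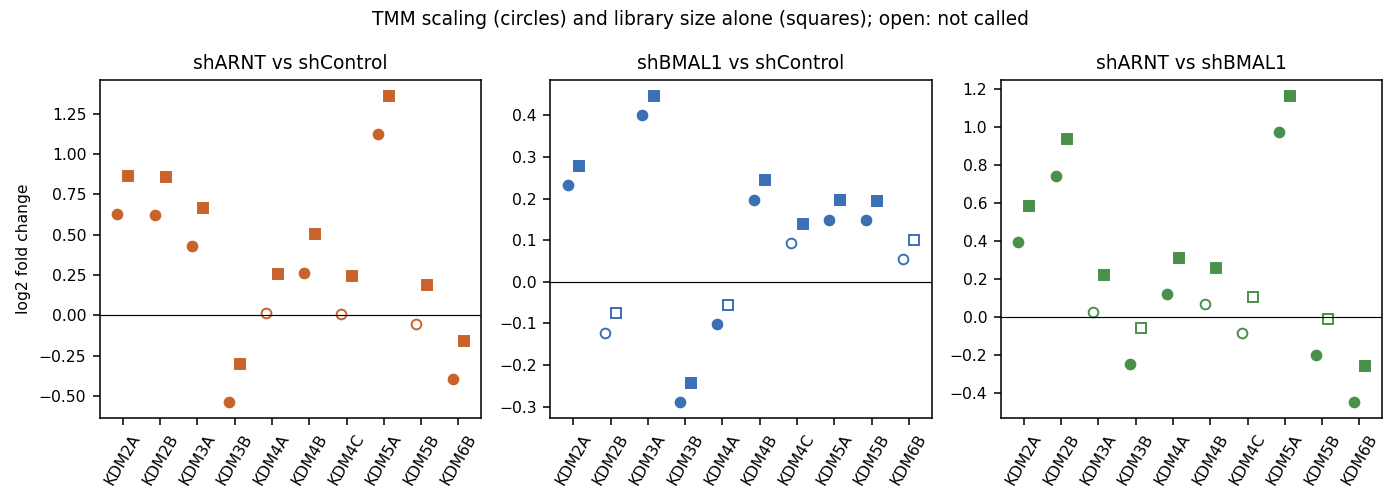
Log2 fold change of each demethylase (vertical axis) under the trimmed mean of M values (circles) and under library size alone (squares) in the 3 comparisons; filled symbols passed an adjusted p under 0.1, and vertical axes differ between panels. Every square lies above its circle, and KDM5B in shARNT against shControl moves from -0.05 to 0.19.

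Per kilobase of transcript, so that genes can be set beside each other, the highest level in shControl was that of KDM3A at 16.98 ± 0.290 CPM per kilobase, followed by KDM3B at 15.8 ± 0.788, KDM4A at 15.4 ± 0.524, KDM5B at 14.4 ± 0.309 and KDM2A at 13.3 ± 0.624 (SD, n = 3). KDM6B at 9.27 ± 0.712, KDM4B at 9.19 ± 0.613 and KDM4C at 7.48 ± 0.165 came next, and KDM5A at 5.11 ± 0.274 and KDM2B at 4.97 ± 0.407 were lowest. The control libraries of KDM3B and KDM4A overlapped, as did those of KDM6B and KDM4B and those of KDM5A and KDM2B, so the order within these pairs is not resolved. In shARNT, KDM2A at 20.6 ± 0.396 had moved up next to KDM3A at 22.9 ± 0.651, whereas KDM3B at 10.8 ± 0.313 had come down to overlap with KDM5A at 11.1 ± 0.442 and KDM4B at 11.04 ± 0.842. KDM6B, at 7.05 ± 0.405, had the lowest mean there, although its libraries overlapped with those of KDM4C and of KDM2B.

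Summed by the lysine they act on, the H3K36 demethylases KDM2A and KDM2B made up 16.4% of the members' CPM per kilobase in shControl, 16.9% in shBMAL1 and 22.04% in shARNT. For this sum KDM4A, KDM4B and KDM4C were counted with H3K9, and the 5 H3K9 demethylases made up 57.9%, 57.0% and 52.9%. The H3K4 demethylases made up 17.4%, 18.1% and 19.5%, and KDM6B alone 8.30%, 8.07% and 5.50%. The sum over all members was 111.8 ± 0.971 CPM per kilobase in shControl, 119.5 ± 2.45 in shBMAL1 and 128.1 ± 3.67 in shARNT (SD, n = 3), and with library size alone it was 104.6 ± 1.62, 115.6 ± 2.63 and 141.3 ± 3.58. These are shares of transcripts and not of enzyme activity. The canonical transcripts of the members are 4338 to 10701 bases long, and the 4280 tested genes in that range had a median log2 fold change of 0.03 in shARNT, with 43.9% called higher.

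The remaining proteins with a Jumonji C domain were split in the same manner. Of 19 listed, 18 were tested, and KDM4E had 0 counts in every library. In shARNT 9 were higher and 5 lower, with a median log2 fold change of 0.28, where 40.5% of all genes were higher and 41.3% lower. In shBMAL1 7 were higher and 4 lower, with a median of -0.00, where 31.9% of all genes were higher and 31.5% lower. These shares of all genes are also the background for the lists that follow, and the share of the remaining Jumonji C genes called is close to it in both comparisons. KDM6A, the X-linked H3K27 demethylase related to KDM6B, was higher under both hairpins, by 0.94 on the log2 scale with shARNT (adjusted p = 7.46e-13) and by 0.15 with shBMAL1 (adjusted p = 0.0219), so the H3K27 demethylases KDM6A and KDM6B went in opposite directions in shARNT. RIOX2, a ribosomal oxygenase listed in the table as MINA, was higher in shBMAL1 by 0.92 (adjusted p = 5.12e-11), where its shARNT value was 0.02 (adjusted p = 0.779), or 0.26 (adjusted p = 0.000795) with library size alone. HR, the hairless H3K9 demethylase, was lower in both, at -2.72 (adjusted p = 0.000702) and -1.55 (adjusted p = 0.0248), with 70 counts over all 9 libraries. The other oxygenase list held the TET DNA demethylases and the RNA demethylases FTO and ALKBH5, and 1 of its 5 genes was higher and 3 lower in shARNT, with a median of -0.40, against 1 higher and 2 lower in shBMAL1. FTO was called higher in shARNT at 0.18 (adjusted p = 0.00559) and lower in shBMAL1 at -0.53 (adjusted p = 1.04e-07), and TET1, with 185 counts in all, had -0.68 (adjusted p = 0.0992) and 0.86 (adjusted p = 0.0302). With library size alone the call of TET1 in shARNT was lost, and this list had 2 genes higher and 2 lower there.

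The demethylases of the other chemical class, which use FAD, differed from each other. KDM1B, an H3K4 demethylase of gene bodies, had a log2 fold change of -1.72 with the ARNT hairpin (adjusted p = 8.72e-13) and -0.35 with the BMAL1 hairpin (adjusted p = 0.00167). KDM1A (LSD1), the founding member, was higher in shARNT at 0.27 (adjusted p = 9.1e-05) and lower in shBMAL1 at -0.58 (adjusted p = 1.72e-08). Together with the CoREST scaffolds, 3 of 4 tested genes were higher and 1 lower in shARNT, with RCOR3 at 0.66 (adjusted p = 7.15e-07), and 0 were higher and 2 lower in shBMAL1. RCOR2 did not pass the filter, with 48 counts over all libraries.

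Methyltransferases that write the marks removed by the members were mostly higher in shARNT. All 6 H3K4 methyltransferases tested were higher in shARNT, with a median log2 fold change of 0.74 (40.5% of all genes higher, median -0.01), whereas 0 were higher and 4 lower in shBMAL1, with a median of -0.25 (31.9% of all genes higher and 31.5% lower, median -0.00). SETD1A, a catalytic subunit of a COMPASS complex, was at 1.29 in shARNT (adjusted p = 6.97e-16), and KMT2A (MLL1) was at 0.27 with the ARNT hairpin (adjusted p = 0.0578) and -0.75 with the BMAL1 hairpin (adjusted p = 5.92e-05). These counts of H3K4 methyltransferases were the same with library size alone, DESeq2 size factors and a replicate block, and DESeq2 gave 5 higher with the ARNT hairpin and 3 lower with the BMAL1 hairpin. All 5 H3K36 methyltransferases were higher in shARNT, with a median of 0.76 and ASH1L at 0.80 (adjusted p = 3.75e-09), and in shBMAL1 2 were lower, NSD1 and NSD3. With library size alone neither passed the threshold there, at -0.14 (adjusted p = 0.131) for NSD1 and -0.0777 (adjusted p = 0.244) for NSD3, which was at -0.12 before. Their lowest values were those of NSD1, at 0.45 with the ARNT hairpin (adjusted p = 2.18e-05) and -0.19 with the BMAL1 hairpin (adjusted p = 0.045). The H3K27 complex PRC2 had all 4 genes higher in shARNT, with EZH1 at 1.39 (adjusted p = 2.52e-12) and EED at 0.29 (adjusted p = 0.00707), and 2 higher and 2 lower in shBMAL1.

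Of the 6 H3K9 methyltransferases, 3 were higher and 0 lower in shARNT, led by SETDB1 at 0.83 (adjusted p = 2.82e-12), and 0 were higher and 2 lower in shBMAL1. With library size alone these counts were 6 higher in shARNT, and 1 higher and 0 lower in shBMAL1, since SUV39H2 and EHMT2 no longer passed the threshold in shBMAL1 although both stayed below 0. SUV39H2 went from -0.26 (adjusted p = 0.0567) to -0.21 (adjusted p = 0.122) and EHMT2 from -0.14 (adjusted p = 0.0501) to -0.0894 (adjusted p = 0.185), and the count of 2 lower was the same with DESeq2. The PRC1.1 complex, which KDM2B brings to CpG islands, had 5 of 8 partners higher and 2 lower in shARNT, and 4 higher and 3 lower in shBMAL1, where 81.8% and 63.3% of all genes were called. BCORL1, a scaffold of that complex, was lower in both, at -1.85 (adjusted p = 8.25e-15) and -0.42 (adjusted p = 3.54e-05), and the adaptor SKP1 was higher in both, at 0.89 (adjusted p = 1.56e-13) and 0.39 (adjusted p = 2.84e-07). KDM2B itself had gone up in shARNT alone.

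**Figure D5:**
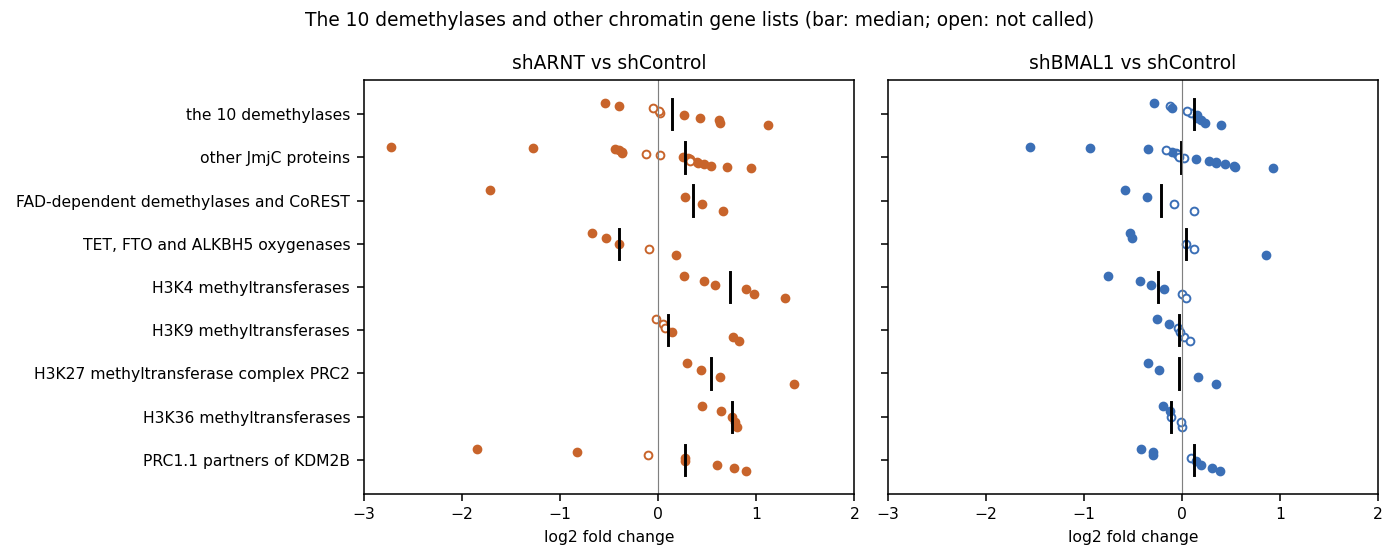
Log2 fold change (horizontal axis) of each gene in the 10 demethylases and in each list of related genes, for shARNT and shBMAL1 against shControl; filled points passed an adjusted p under 0.1, open points did not, and black bars are list medians. All H3K4 and H3K36 methyltransferases tested lie to the right of 0 in shARNT, with medians of 0.74 and 0.76.

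The profile of each hypoxia-target member was matched to other genes by the root mean square difference of their log2 CPM across the 9 libraries after centring on the gene's mean, among 11228 genes with a mean log2 CPM of at least 2. The genes nearest to KDM3A were CAPZB (0.0425), JAGN1 (0.0467) and RNF220 (0.0476). Those nearest to KDM4B were ANKS3 (0.0400), ZNF706 (0.0465) and EDC3 (0.0516), and those nearest to KDM4C were ITSN2 (0.0524), MOCOS (0.0565) and EIF4H (0.0578). These differences are on the log2 scale, and the libraries of a group are the points they share.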

How the data were processed

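RNA from 9 A498 cultures was made into stranded mRNA libraries and sequenced at BGI. The deposited table holds estimated counts per gene, which the authors made, by their methods, with SeqMan NGen on GRCh37 and ArrayStar, while the submitters' processing notes name hg38, STAR and DESeq2. The annotation release, the treatment of reads with several matches and the use of strand were not given in the sources used here. Values were whole except for 720 to 787 per library and were rounded. Any entry equal to a small fixed placeholder value was read as no counts and left out of that tally. Of 27716 rows, those sharing 1 of 43 names were summed, and 28 rows named by a date were kept apart, which left 27673 genes. All 9 libraries entered a single edgeR 4.0.16 fit (R 4.3.3, TMM, filterByExpr, quasi-likelihood F-test, two-sided), with calls at a Benjamini-Hochberg adjusted p under 0.1. SE is the log2 fold change divided by the root of F. The common dispersion was 0.00311 and the prior degrees of freedom 13.3. Replicates of a group differed by more than sampling noise.

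Lengths and GRCh37 positions are from GENCODE release 44 lifted to that build, using the canonical transcript. The alternatives were library size alone, DESeq2 size factors, no filter, DESeq2 1.42.0, 6 libraries only, a replicate block, halved counts, a minimum fold change of 1.5 and leaving out each library. The script was tested on simulated data. The gene family and the lists were proposed with earlier results of these data known, although the rule that takes the members by name uses no value. The genes named from each list are those called with the lowest and the highest log2 fold change in each comparison with shControl, and the nearest profiles are the 3 closest of the 11228 tested genes with a mean log2 CPM of at least 2. No protein sequences were used here.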

Additional observations from a re-analysis of the deposited data

Results flagged for a closer look

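The genes below differed between the effects of the 2 hairpins by a direct test, shARNT against shBMAL1 at an adjusted p under 0.1 (edgeR), which is the difference of their changes against the shared shControl libraries. In this comparison 81.2% of all genes tested were called.

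Among the demethylases the log2 fold changes were 0.98 for KDM5A, 0.74 for KDM2B, 0.40 for KDM2A, 0.12 for KDM4A, -0.20 for KDM5B, -0.25 for KDM3B and -0.45 for KDM6B. KDM5A and KDM2A had risen under both hairpins, by more in shARNT, and KDM3B had fallen under both. KDM2B and KDM6B were called against shControl in shARNT only.

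Among the related genes, the H3K4 methyltransferases SETD1A, KMT2B and KMT2A differed by 1.25, 1.08 and 1.02, the H3K36 methyltransferases NSD3 (listed as WHSC1L1), ASH1L and NSD1 by 0.88, 0.82 and 0.63, the PRC2 subunits EZH1 and EZH2 by 1.62 and 0.79, and the H3K9 methyltransferases SETDB1, SUV39H2 and EHMT2 by 0.75, 0.31 and 0.27. KDM1A, KDM6A, FTO, RCOR3 and SKP1 were also higher in shARNT, by 0.85, 0.80, 0.71, 0.54 and 0.51. Lower in shARNT were TET1 at -1.54, BCORL1 at -1.43, KDM1B at -1.37 and RIOX2 (MINA) at -0.91. The targets and the marker of hypoxia-inducible factor activity differed as well, with ARNT at -1.77, ARNTL at 2.25 and CA9 at -4.83.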

How the results depend on the processing

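With library size alone, the median over all genes tested moved to 0.23 (shARNT) and 0.05 (shBMAL1) on the log2 scale against shControl and to 0.18 between the hairpins. In shARNT against shControl KDM5B turned from -0.05 to 0.19, KDM4A (0.26) and KDM4C (0.25) became called, and the members called numbered 10. In shBMAL1 against shControl KDM4A lost its call (-0.0547), KDM4C gained one (0.14), and 6 members were higher and 1 lower. In shARNT against shBMAL1 KDM4C turned to 0.11 (adjusted p = 0.159), KDM3A (0.22) and KDM4B (0.26) gained calls, KDM3B (-0.0585) and KDM5B (-0.00947) lost them, and 6 members were higher and 1 lower; of the related genes 40 were higher and 7 lower, 47 in all, against 32 and 11. The cause was not tested.

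Without the filter KDM4A was not called in shBMAL1 (-0.10, adjusted p = 0.128), which left 6 members called, and more genes were tested. With 6 libraries only, KDM4C in shARNT was -0.00266. Against a minimum fold change of 1.5, the members called were 1 for shARNT and 0 for shBMAL1 against shControl and 2 between the hairpins, and in the same order the related genes called were 18, 2 and 24 and all genes 6965, 2111 and 6831.

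When each library was left out in turn, KDM4C in shARNT ran from -0.0183 to 0.0263, being -0.00179, -0.00381 and -0.0183 without shControl replicate 1, shControl replicate 3 and shARNT replicate 1. KDM4A in shARNT ran from -0.0172 to 0.0422, being -0.0131 and -0.0172 without shControl replicate 2 and shARNT replicate 3. In shBMAL1, KDM6B ran from -9.79e-05, without shControl replicate 3, to 0.11, KDM2B from -0.19 to -0.0829, KDM4A from -0.14 to -0.0765 and KDM4C from 0.0182 to 0.16, with 6 to 7 members called. In shARNT against shBMAL1, KDM4A ran from 0.0845 to 0.15, KDM4B from 0.0183 to 0.13 and KDM4C from -0.16 to -0.0116, with 6 to 8 members called.

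Replicate numbers did not pair the libraries: same-numbered libraries correlated at -0.173 to 0.277 after subtraction of group means, and not every library correlated best with its own number. The fit with a replicate block called 7 members in each comparison and changed no call of a member, as did DESeq2, its size factors in edgeR and halved counts.

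Against shControl, 7 member changes in shARNT (KDM2A, KDM2B, KDM3A, KDM3B, KDM4B, KDM5A and KDM6B) and 6 in shBMAL1 (KDM2A, KDM3A, KDM3B, KDM4B, KDM5A and KDM5B) kept direction and call under every alternative that gave a fold change. In shARNT against shBMAL1 this held for KDM2A, KDM2B, KDM5A and KDM6B. At 35269851 counts or more per library, depth did not keep any member from being tested; with 3 libraries per group, single hairpins and an unstated use of strand, changes near 0.1 on the log2 scale stay within reach of the choice of libraries.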

Other observations

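Some other genes for proteins with a Jumonji C domain were picked after their values were seen. Each had, in shARNT or in shBMAL1 but not always in both, a change larger in size than that of most members. JMJD8, a protein of the endoplasmic reticulum, had a log2 fold change of -1.27 with the ARNT hairpin (adjusted p = 1.8e-12) and 0.35 with the BMAL1 hairpin (adjusted p = 0.000222). PHF2, an H3K9 demethylase with a PHD finger, had 0.26 with the first (adjusted p = 0.000578) and -0.94 with the second (adjusted p = 1.09e-10). JARID2, a PRC2 cofactor without demethylase activity, was higher under both hairpins, at 0.70 (adjusted p = 2.46e-06) and 0.54 (adjusted p = 0.000132). KDM5C, the X-linked H3K4 demethylase, was higher in shARNT like KDM5A, at 0.46 (adjusted p = 3.31e-10), and was at -0.04 in shBMAL1 (adjusted p = 0.352).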
